A study of Homo sapiens with 6 samples.

Results

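The BCL2 family of survival regulators was examined in BL-2 cells treated for 6 h with lipopolysaccharide (LPS) and in untreated control cells. BL-2 is a line grown from Burkitt lymphoma, a tumour that resembles B cells of the germinal centre. LPS is the glycolipid that coats Gram-negative bacteria and is sensed by Toll-like receptors. RNA of 3 LPS samples and 3 control samples was measured, each on 1 Affymetrix array. Both groups are 1 cell line, and the labels give neither a dose of LPS nor a time for the control samples. They do not give separate cultures for the replicates either, so the spread behind each p-value may be partly or wholly technical. The family was taken as 10 genes, and its members were all probe sets (groups of probes read as 1 value) annotated with exactly 1 gene symbol equal to BCL2, BCL2L1, BCL2A1, MCL1, BCL2L11, BAX, BAK1, BBC3, PMAIP1 or BID. This gave 30 probe sets of 54613 tested, for 9 genes of 19775. The only probe set listed for BBC3 (which encodes PUMA) carries several symbols, so BBC3 is given no value.

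Proteins of the BCL2 family decide whether the outer membrane of mitochondria is opened, the step that releases cytochrome c and commits a cell to death by caspases. The survival proteins BCL2, BCL-XL (BCL2L1), BFL-1 (BCL2A1) and MCL1 bind and hold back the pore-forming effectors BAX and BAK1. The BH3-only proteins BIM (BCL2L11), PUMA (BBC3), NOXA (PMAIP1) and BID free or trigger the effectors, each with its own choice of partners: NOXA binds MCL1 and BFL-1, whereas BIM and PUMA bind all survival proteins. In B cells BIM is a main killer, germinal centre B cells rely on MCL1, and BCL2A1 is a known target of NF-kB.

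The results turn on BCL2A1, PMAIP1, BID and BAK1, the 4 genes in which all LPS values lay above all control values in every probe set, and their promoters are shown so that the regions can be compared. The bases are the 250 before the gene's start in RefSeq (build GRCh38.p14), 5′ to 3′ on the gene's strand, at chr15:79971197-79971446 (minus strand) for BCL2A1, chr18:59899746-59899995 (plus strand) for PMAIP1, chr22:17774666-17774915 (minus strand) for BID, which has 5 start windows in that table, and chr6:33580277-33580526 (minus strand) for BAK1. Capitals mark a TATA box (TATAAA) or, read on the opposite strand, the core of a cyclic AMP response element (TGACG).
BCL2A1: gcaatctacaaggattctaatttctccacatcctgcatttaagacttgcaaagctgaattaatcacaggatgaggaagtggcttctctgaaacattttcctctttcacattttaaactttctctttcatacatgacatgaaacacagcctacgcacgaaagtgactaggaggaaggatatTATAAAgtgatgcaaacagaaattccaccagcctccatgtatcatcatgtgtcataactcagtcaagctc
PMAIP1: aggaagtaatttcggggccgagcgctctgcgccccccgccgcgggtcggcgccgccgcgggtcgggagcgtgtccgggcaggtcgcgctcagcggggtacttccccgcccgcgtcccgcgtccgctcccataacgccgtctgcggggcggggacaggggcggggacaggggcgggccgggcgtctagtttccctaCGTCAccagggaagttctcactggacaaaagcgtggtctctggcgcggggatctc
BID: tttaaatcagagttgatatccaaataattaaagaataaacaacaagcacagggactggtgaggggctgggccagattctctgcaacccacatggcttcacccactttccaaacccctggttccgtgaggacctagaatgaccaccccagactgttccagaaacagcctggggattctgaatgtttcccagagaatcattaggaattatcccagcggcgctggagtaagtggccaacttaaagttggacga
BAK1: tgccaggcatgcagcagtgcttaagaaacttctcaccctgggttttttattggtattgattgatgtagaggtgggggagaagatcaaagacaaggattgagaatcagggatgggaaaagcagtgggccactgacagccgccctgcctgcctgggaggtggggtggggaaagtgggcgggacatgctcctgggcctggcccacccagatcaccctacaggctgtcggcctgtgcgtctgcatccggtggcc
The windows differ in base composition, with 38.8% G and C in BCL2A1, 72.8% in PMAIP1, 47.6% in BID and 58.0% in BAK1. The BCL2A1 window held 1 TATAAA, found on either strand in 10.8% of 34788 promoter windows of this length, and the PMAIP1 window held 1 TGACG, found in 21.2% of them. Neither is particular to these genes. The BCL2L1 window held 2 TATAAA, and those of BCL2, BCL2L1 and BAX held 1 TGACG each, all genes whose LPS and control values overlapped. The NF-kB site in its consensus form was found in 0 of 9 windows examined (those of all members but MCL1, and so with BBC3), and in 9.95% of all windows, and the full cyclic AMP response element TGACGTCA in 0 of 9, and in 1.64% of all. No match says only that these letters are not in this window.

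Of the 30 probe sets 0 passed the test, limma over all probe sets with a Benjamini-Hochberg adjusted p under 0.05, which 0.264% of all tested probe sets passed. An unadjusted p under 0.05 was reached by 7 of the 30, against 8.08% of all. All 7 were higher in LPS, and they belonged to BCL2A1, BAK1, PMAIP1 and BID. Of all tested probe sets 4.55% both reached that p and were higher in LPS. In the same 7 probe sets every LPS value lay above every control value, which held for 7.00% of all probe sets. In 2 further probe sets, 1 of MCL1 and 1 of BCL2L11, every LPS value lay below every control value, which held for 6.38% of all. In total 9 of the 30 did not overlap, against 13.4% of all. The difference, LPS minus control on the log2 scale, ran from -0.19 to 0.39 over the 30 probe sets, or from 0.877-fold to 1.31-fold. Its median was 0.00071, beside 0.0029 over all probe sets. The 95% interval of the difference lay within a 1.5-fold change in either direction for 29 of the 30, the exception being BCL2A1 by a narrow margin.

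**Figure D1:**
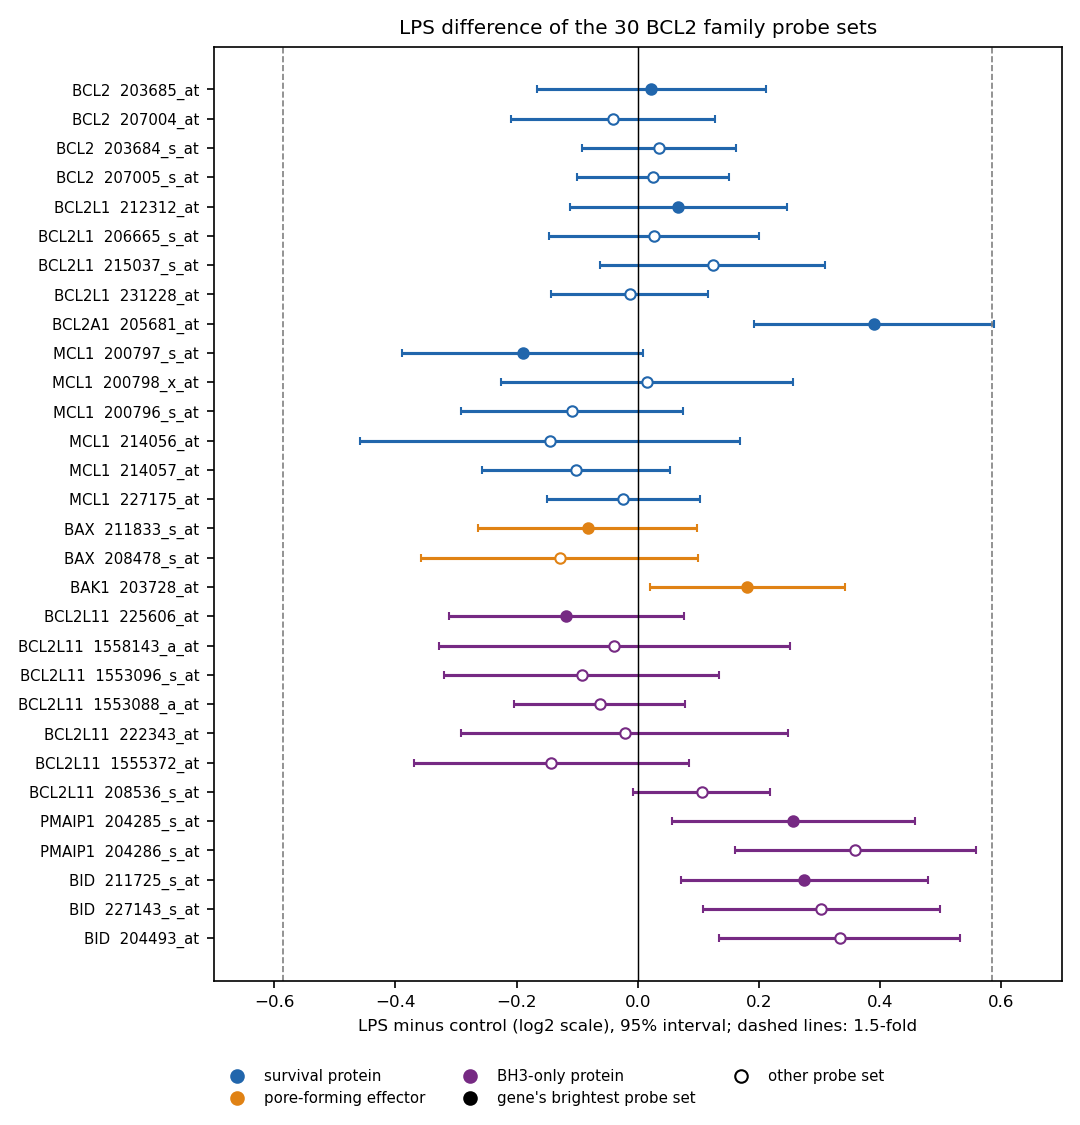
Difference between LPS and control (x axis, LPS minus control on the log2 scale) for each of the 30 probe sets (y axis), with its 95% interval from limma. Filled points are each gene's brightest probe set, open points the others, and dashed lines mark a 1.5-fold change. The PMAIP1, BID, BAK1 and BCL2A1 intervals lie above 0, and 29 of 30 intervals lie between the dashed lines.

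The arrays were alike in level, with medians from 6.42 to 6.47, and correlated at 0.992 to 0.997 with each other over all tested probe sets. By the level of bacterial and phage transcripts spiked into every hybridisation they formed 2 sets, set A with LPS 1, LPS 2 and control 1 (10.20 to 10.29) and set B with LPS 3, control 2 and control 3 (10.51 to 10.61). Values within each set, and with the set as a term in the fit, are given where they bear on a member. The B cell and germinal centre markers that could be read were bright, with a median at percentile 95.8 of all probe sets. Those of monocytes stood at a median percentile of 31.6 and those of T and NK cells at 44.6, the highest of both lists being CSF1R at 60.8. The summed log2 values of the 8 B cell and germinal centre markers ran from 83.07 to 83.63 in LPS and from 84.37 to 85.22 in control samples, with 5 of the 8 lower in every LPS sample than in any control sample, which held for 7.80% of all genes. Of the 8 markers 0 passed the limma test, against 0.389% of all genes, and 5 had an unadjusted p under 0.05, against 9.56% of all genes. Fitted with array set as a term 3 passed, all lower in LPS, against 2.02% of all genes: CD79A (adjusted p = 0.0103), CD38 (adjusted p = 0.00954) and BCL6 (adjusted p = 0.0467). The difference was negative for 7 of the 8 markers and positive for 1, PAX5. PAX5 gave 0.31 with overlapping groups (limma adjusted p = 0.648), 0.12 within set A and 0.24 within set B. Whether these marker differences have a part in the members' values was not tested. The summed log2 values of the 4 monocyte markers ran from 24.92 to 25.07 in LPS and from 25.01 to 25.16 in control samples, and those of the 6 T and NK markers from 37.94 to 38.21 in LPS and from 37.82 to 38.45 in control samples. In bulk RNA, fewer cells with a transcript and less of it per cell cannot be told apart.

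Among the survival genes BCL2A1 had the largest difference in the whole family. Its protein, BFL-1, sequesters BH3-only proteins such as BIM and NOXA. The values were 8.24, 8.16 and 8.29 in LPS 1 to 3, against 8.03, 7.82 and 7.67 in control 1 to 3 (log2 scale). All LPS values lay above all control values, with the narrowest gap to control 1. The means were 8.23 ± 0.069 in LPS and 7.84 ± 0.18 in control samples (SD, n = 3 each), a difference of 0.39 or 1.31-fold with a 95% interval from 1.14-fold to 1.503-fold (limma, SE 0.092, adjusted p = 0.132). Within set A the difference was 0.17 and within set B 0.55. Fitted with array set as a term it was 0.36 and passed the limma test (adjusted p = 0.0299), as did 2 of the 30 probe sets and 1.34% of all. With the replicate number as a block it also passed (adjusted p = 0.0386), as did 2 of the 30 and 0.912% of all. Over 17 alternatives the adjusted p of BCL2A1 ran from 0.0154, without control 1, to 0.602, without control 3. When 1 array was left out of the fit with array set, BCL2A1 passed in 3 of 6 fits. The difference ran from 0.17, without LPS 3, to 0.55, without control 1. These 2 ends are the differences within set A and within set B again, since each such fit compares LPS with control in 1 set only. BCL2A1 has 1 probe set, so the array holds no other reading of it.

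MCL1 encodes a short-lived survival protein. Its brightest probe set read 11.38, 11.36 and 11.49 in LPS samples, against 11.52, 11.59 and 11.68 in control samples. The LPS values were all lower, with LPS 3 and control 1 nearly level. The difference was -0.19 (95% interval -0.39 to 0.01, limma adjusted p = 0.642), -0.16 within set A and -0.15 within set B. The next brightest MCL1 probe set, whose suffix marks possible cross-hybridisation, read 11.11, 11.01 and 10.80 in LPS and 11.13, 10.80 and 10.94 in control samples, a difference of 0.01. The 2 groups overlapped there. The other MCL1 probe sets gave -0.15 to -0.02, so 5 of 6 were negative and 0 passed.

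BCL2 itself, the founding member, showed differences of -0.04 to 0.04 over its 4 probe sets. The brightest read 7.88, 7.85 and 7.72 in LPS samples, against 7.62, 7.94 and 7.82 in control samples. Both the lowest and the highest value were control values. The difference was 0.02 (95% interval -0.17 to 0.21, limma adjusted p = 0.976), with 0.24 within set A and -0.16 within set B. BCL2L1 encodes the long-lived BCL-XL and, by alternative splicing, a pro-apoptotic short form, which these values do not separate. Its brightest probe set read 9.19, 9.27 and 9.19 in LPS samples, against 9.22, 9.15 and 9.07 in control samples, a difference of 0.07 (95% interval -0.11 to 0.25, adjusted p = 0.906). The groups overlapped, and the other 3 BCL2L1 probe sets gave -0.01 to 0.12, also with overlap.

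**Figure D2:**
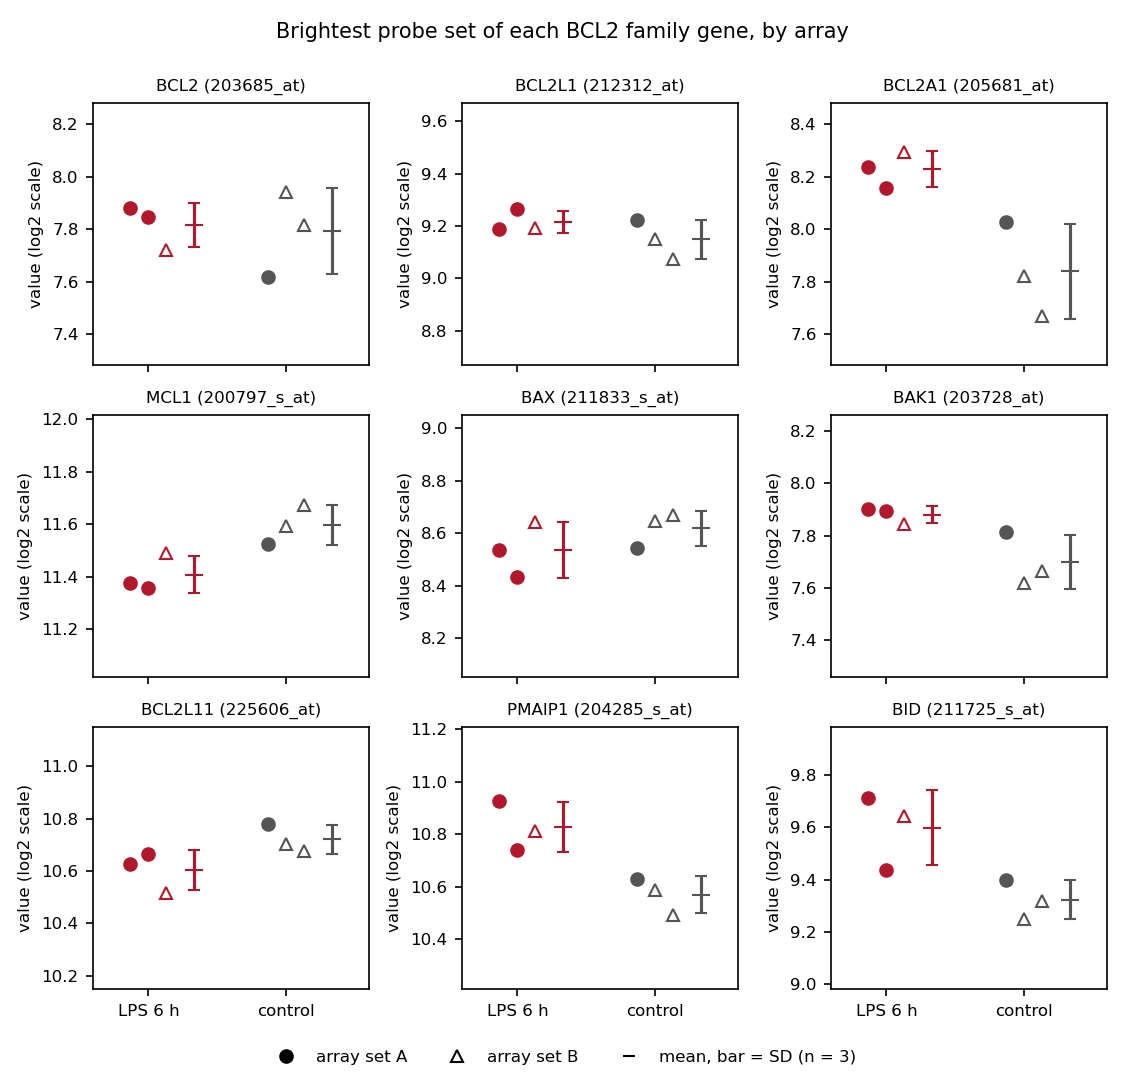
Values of the brightest probe set of each gene (y axis, log2 scale, each panel spanning 1 unit) in LPS and control samples. Each point is an array, filled circles for set A and open triangles for set B, and bars show mean and SD of 3 arrays. BCL2A1, BAK1, PMAIP1 and BID have all LPS points above the control points, MCL1 and BCL2L11 all below, and BCL2, BCL2L1 and BAX overlap.

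The effectors BAX and BAK1 form the pores in the outer mitochondrial membrane. BAK1 read 7.90, 7.89 and 7.84 in LPS samples, against 7.81, 7.62 and 7.67 in control samples. The LPS values were close together and all above the control values, the nearest being control 1. The difference was 0.18 (95% interval 0.02 to 0.34, limma adjusted p = 0.551), with 0.08 within set A and 0.20 within set B. BAX read 8.53, 8.43 and 8.64 in LPS samples, against 8.54, 8.64 and 8.67 in control samples by its brightest probe set. These groups overlapped, with a difference of -0.08 (95% interval -0.26 to 0.10, adjusted p = 0.874). The other BAX probe set gave -0.13 and a set B minus set A difference of 0.30.

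Of the BH3-only genes, PMAIP1 encodes NOXA, the partner of MCL1 and BFL-1. Its brightest probe set read 10.93, 10.74 and 10.81 in LPS samples, against 10.63, 10.59 and 10.49 in control samples, a difference of 0.26 (SE 0.093, limma adjusted p = 0.457). The other read 10.45, 10.29 and 10.30 in LPS samples, against 10.01, 10.06 and 9.90 in control samples, a difference of 0.36 or 1.28-fold (95% interval 1.12-fold to 1.47-fold, SE 0.092, adjusted p = 0.179). In both the groups were apart, and the second kept a like difference in each array set, 0.36 within set A and 0.33 within set B. In the fit with array set this probe set gave 0.34 and passed the limma test (adjusted p = 0.0235), while the brightest gave 0.24 and did not (adjusted p = 0.157). Over 15 alternatives the adjusted p of the second ran from 0.0235 to 0.716. Leaving 1 array out of that fit, it passed in 2 of 6 fits, with adjusted p up to 0.398, while its difference stayed between 0.30 and 0.38.

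BID links death receptors to the mitochondrial step, since caspase 8 cleaves it into its active form. The brightest of its 3 probe sets read 9.71, 9.44 and 9.64 in LPS samples, against 9.40, 9.25 and 9.32 in control samples. The second read 9.16, 9.02 and 9.23 in LPS samples, against 8.92, 8.71 and 8.87 in control samples. The third read 9.04, 8.87 and 8.92 in LPS samples, against 8.78, 8.54 and 8.51 in control samples. In each of the 3 the lowest LPS array was LPS 2 and the highest control array was control 1, and the groups did not overlap. The differences were 0.27, 0.30 and 0.33, or 1.21-fold, 1.23-fold and 1.26-fold, with SE of 0.091 to 0.095 and limma adjusted p of 0.415, 0.301 and 0.2395. These probe sets read the same transcript on the same arrays and are not independent of each other. Within set A the 3 gave 0.17 to 0.18 and within set B 0.36 to 0.44. The fit with array set gave 0.27, 0.30 and 0.28 (adjusted p = 0.156, 0.0802 and 0.0898). Without control 1 the third passed (adjusted p = 0.0459), and over its 15 alternatives the adjusted p ran from 0.0459 to 0.760.

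BCL2L11, which encodes BIM, was bright by its leading probe set, at percentile 96.9 of all probe sets, and is expressed as several splice forms. That probe set read 10.63, 10.66 and 10.52 in LPS samples, against 10.78, 10.70 and 10.68 in control samples. The LPS values were all lower, LPS 2 and control 3 being nearly equal. The difference was -0.12 (95% interval -0.31 to 0.08, limma adjusted p = 0.812), with -0.14 within set A and -0.17 within set B. Of the 6 others, 5 were also negative, at -0.14 to -0.02, and the dimmest, at percentile 19.3, gave 0.11. In the fit with array set the 6 negative ones ran from -0.18 to -0.08, and the lowest adjusted p among them was 0.380. In 3 cases bright or middling BCL2L11 probe sets differed more by array set than by LPS, with LPS differences of -0.04, -0.09 and -0.02 and set B minus set A differences of -0.33, -0.21 and -0.37. With array set as a term the LPS differences of these 3 were -0.17, -0.18 and -0.16, and within sets A and B all were negative. In these the lowest value of all 6 arrays was that of LPS 3.

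**Figure D3:**
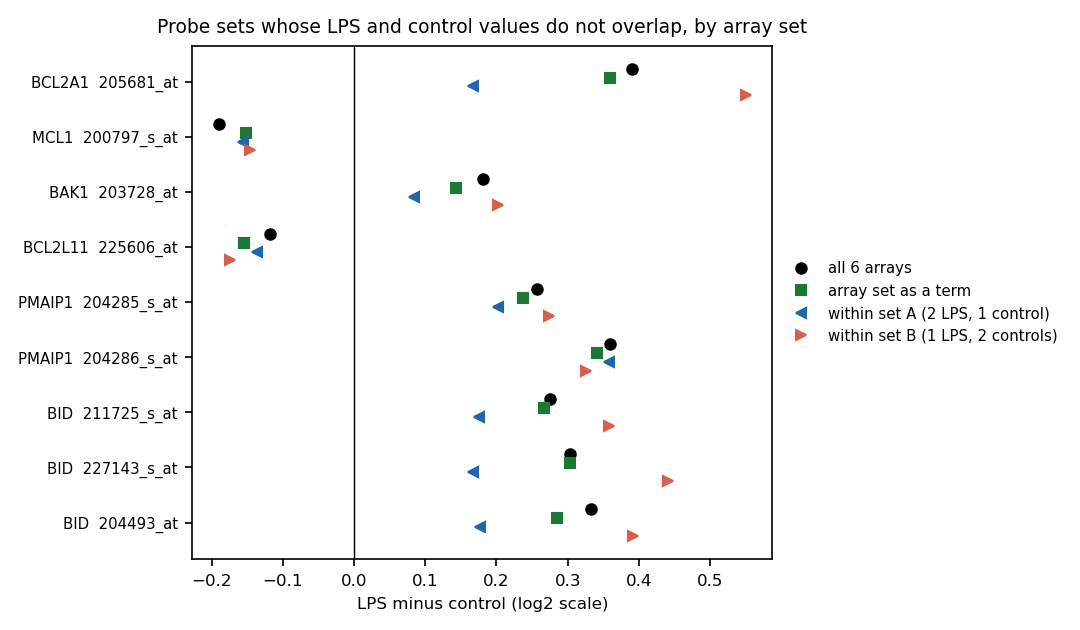
Difference between LPS and control (x axis, log2 scale) for the 9 probe sets (y axis) whose groups did not overlap, over all arrays, with array set as a term, and within each set. Within set A the differences of BCL2A1, BAK1 and BID were smaller than within set B, and the lower of the PMAIP1 probe sets had 0.36 and 0.33. The shared sign follows from groups that do not overlap.

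By role, the 15 probe sets of survival genes had 1 probe set with all LPS values above control (BCL2A1) and 1 below (MCL1), and a median difference of 0.015. Those are 6.67% in each direction, near the 7.00% above and 6.38% below of all probe sets. Of the 3 of effectors 1 lay above (BAK1), with a median of -0.083. Of the 12 of BH3-only genes 5 lay above, all of PMAIP1 and BID, and 1 below (BCL2L11), with a median of 0.042. The 5 are 41.7%, against 7.00% of all probe sets, and come from 2 genes. Probe sets of the same gene are not replicates, so the counts describe the genes named and no more.

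**Figure D4:**
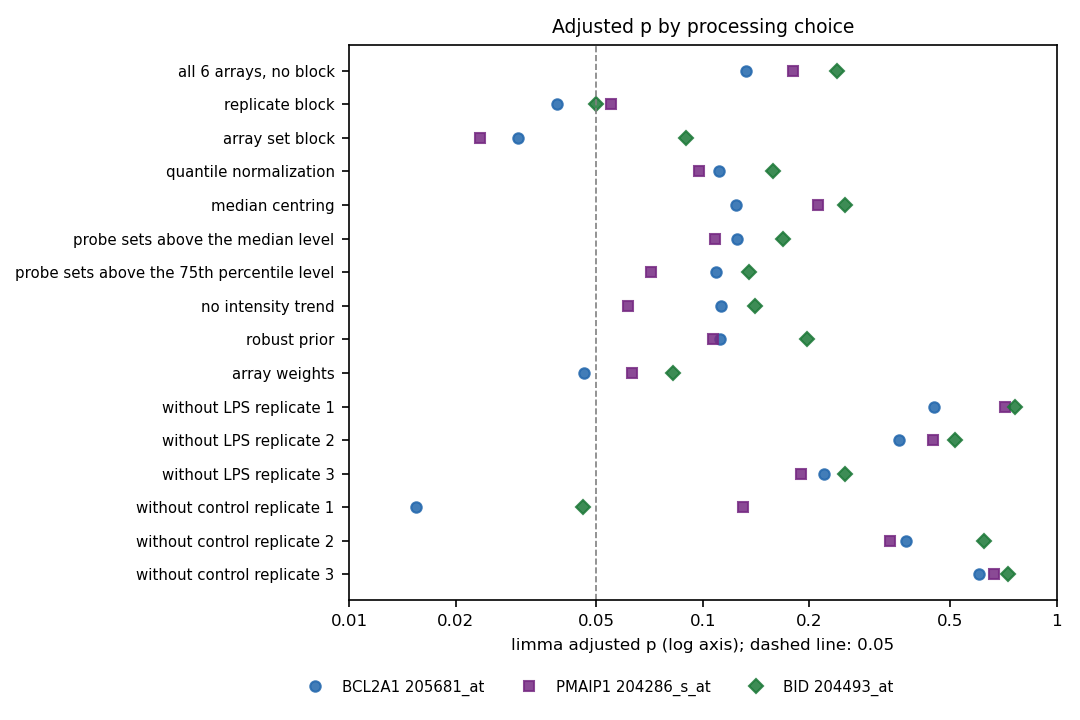
Adjusted p from limma (x axis, log scale) of the probe set with the smallest unadjusted p of BCL2A1, PMAIP1 and BID under each processing choice (y axis), with 0.05 dashed. BCL2A1 passed under both block terms, with array weights and without control 1, PMAIP1 with the array set block, and BID with the replicate block and without control 1.

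The 6-array pattern of BCL2A1 was most like that of RAC1, a small GTPase of the cytoskeleton (Pearson r = 0.993), GFM1, a mitochondrial elongation factor (r = 0.992), and TXNDC9 (r = 0.991), out of 23089 probe sets of other genes above the median level. With 6 arrays and so many probe sets, 110 had r over 0.95, and the points share group and array set. The LPS differences of these 3 were 0.16, 0.30 and 0.23, and 0 of them passed the limma test.

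Other apoptosis genes were read by the brightest probe set of each gene. Of these 0 passed the limma test in any of 5 lists, against 0.389% of all genes. Once array set was a term 2 passed, both lower after LPS, against 2.02% of all genes, and these were BNIP3 and, in the caspase list, CASP9, the initiator caspase of the apoptosome, which read 7.998, 7.98 and 7.83 in LPS samples, against 8.28, 8.15 and 8.11 in control samples (adjusted p = 0.0361) and was named after its values were seen. The rest of the family had 17 genes measured of 17, with 8 differences above 0 and 9 below, and a median of -0.019 beside 0.0016 over all genes. An unadjusted limma p under 0.05 was reached by 3 of the 17, BNIP3, BNIP3L and HRK, all lower in LPS, against 9.56% of all genes. BNIP3, a BH3-like protein of mitophagy that is induced by hypoxia, read 9.35, 9.47 and 9.49 in LPS samples, against 9.70, 10.74 and 10.19 in control samples. All LPS values were lower, and control 2 and control 3 stood well above control 1. The difference was -0.78 (SE 0.18, limma adjusted p = 0.133), with -0.29 within set A and -0.98 within set B. The other BNIP3 probe set gave -0.75 (adjusted p = 0.0600), and with array set as a term both passed (adjusted p = 0.00692 and 0.00189). Over 17 alternatives the adjusted p of the brightest BNIP3 probe set ran from 0.00144, without control 1, to 0.508, without control 3. When 1 array was left out of the fit with array set it passed in 5 of 6 fits, and without LPS 3 it did not pass (difference -0.29, adjusted p = 0.814). The differences ran from -0.98 to -0.29, and these 2 ends are again those within set B and within set A. Its relative BNIP3L gave -0.56 (adjusted p = 0.327), and LPS 2 lay above control 1 there. The other BNIP3L probe set had all LPS values below control and gave -0.49 (adjusted p = 0.202), and it passed limma with array set as a term (adjusted p = 0.0384) and with the replicate block (adjusted p = 0.0128). Named for their role and not by size, the BH3-only genes BAD, BIK and BMF lay at 0.05, 0.04 and 0.0036, HRK at -0.22 (adjusted p = 0.530), and BOK, a relative of the effectors, at -0.08.

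The mitochondrial pathway and caspase list had 17 genes measured of 19, 8 above 0 and 9 below, with a median of -0.0093. An unadjusted limma p under 0.05 was reached by 3 of the 17, APAF1, CASP6 and CASP9, all lower in LPS, against 9.56% of all genes. APAF1, the scaffold of the apoptosome, gave -0.29 (limma adjusted p = 0.193), with its 2 other probe sets at -0.05 and -0.08. CASP6, an executioner caspase, gave -0.28 (adjusted p = 0.305) and -0.18 by its other probe set. The death receptor arm had 9 of 10 measured, with a median of 0.046 and 1 gene, FAS, with an unadjusted limma p under 0.05. FAS, the receptor of FAS ligand, read 6.95, 7.06 and 6.96 in LPS samples, against 6.82, 6.61 and 6.75 in control samples, a difference of 0.26 (adjusted p = 0.186). The groups were apart in that probe set. The 4 others of FAS gave -0.02 to 0.22, and in that at 0.16 all LPS values also lay above control. TNFRSF10A, a TRAIL receptor, gave 0.19 (adjusted p = 0.659), and 0.08 and -0.0063 by its other probe sets.

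Known upstream controls of the members, 9 of 10 measured, had a median of 0.020 and 0 with an unadjusted p under 0.05 (limma), against 9.56% of all genes. FOXO3, a factor that drives BCL2L11 and BBC3, gave -0.14 (adjusted p = 0.750) and -0.18 to 0.02 by its other probe sets, and NFKB1, a subunit of the NF-kB factors that drive BCL2A1, gave 0.18 (adjusted p = 0.825), with 0.06 within set A and 0.0045 within set B. Factors of protein stability, such as the ubiquitin ligases of MCL1, had 11 of 12 measured, a median of 0.029 and also 0 with an unadjusted p under 0.05. PPP2CA, a phosphatase subunit, gave 0.16 (adjusted p = 0.779), and 0.12 and 0.18 by its other probe sets. BAG1, a chaperone cofactor that binds BCL2, gave 0.10 (adjusted p = 0.868). Its other probe sets gave 0.14 (adjusted p = 0.752) and, with all LPS values above control, 0.25 (adjusted p = 0.257, or 0.0807 with array set as a term).

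**Figure D5:**
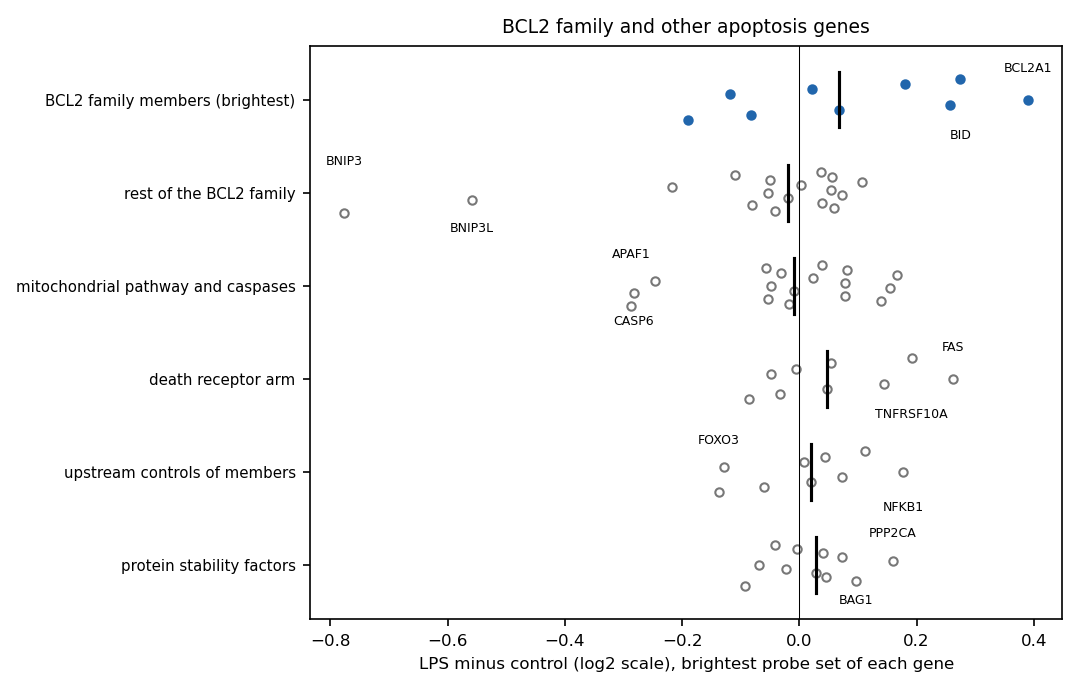
Difference between LPS and control (x axis, log2 scale) by the brightest probe set of each gene, for the 9 family members and 5 lists of other apoptosis genes (rows). Points are genes, black bars are medians, and the 2 genes of smallest unadjusted p in each row are named. BNIP3 and BNIP3L lie at -0.78 and -0.56, and the members run from -0.19 to 0.39.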

How the data were processed

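Arrays of 3 LPS and 3 control samples of BL-2 cells were compared. The deposited values, 1 per probe set and array, were taken as log2 because all lay between 5.46 and 14.8; the steps by which the authors made these log2 values are not stated in the labels, and neither background correction nor normalisation was added. Tests left out 62 Affymetrix controls. Symbols came from the platform annotation, updated by gene identifier through RefSeq (GRCh38.p14); 41037 of 41091 probe sets with 1 symbol matched. The levels of different probe sets are not comparable. No detection calls were used, and values near the floor may be compressed.

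Group was the sole term of a model fitted in R 4.3.3 with limma 3.58.1 (empirical Bayes, intensity trend, two-sided, Benjamini-Hochberg over 54613 probe sets, threshold 0.05, 95% intervals), after the same steps had been tested on simulated arrays. The number of arrays limits the precision; the median SE of a difference over all probe sets was 0.063. A gene's brightest probe set is that with the highest mean over the 6 arrays. Named were all members, the 2 genes of smallest unadjusted p in each list of other apoptosis genes where 0 passed, and the 3 probe sets most like the leading member. Array set (A or B) was defined at the widest gap, 0.22 against 0.081 for the next, in mean level of the spiked hybridisation controls. The labels do not say whether replicate numbers pair the arrays. Deviations from the group means were correlated between LPS and control arrays. For arrays of the same number the correlation was 0.44, -0.04 and 0.23 for numbers 1 to 3. For arrays of different numbers it ran from -0.47 to 0.32. With 3 arrays in each group these correlations cannot decide whether the numbers pair the arrays. The members and lists were chosen with earlier results of these data known. Alternatives were the replicate number or the array set as a block, median centring, quantile normalisation, 2 filters on dim probe sets, other variance priors, array weights, leaving out probe sets with the suffix _s_at or _x_at, a threshold of 0.10, averaging the probe sets of a gene, and leaving out each array.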

Additional observations from a re-analysis of the deposited data

How the results depend on the processing

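Over all probe sets 144 passed limma at an adjusted p under 0.05, against 498 with the replicate block, 734 with the array set block, 309 with array weights, 292 after quantile normalisation, 82 without the suffixes _s_at and _x_at, which leaves fewer probe sets to test, and 265 at a threshold of 0.10. Of the 30 family probe sets 0 passed, against 2 with either block and 1 with array weights. By the brightest probe set of each member 0 passed, against 1 with either block and 1 with array weights. Of the other apoptosis genes 0 passed, against 2 with either block and 1 with array weights. The replicate block in limma called BCL2A1 (adjusted p = 0.0386), the third BID probe set (adjusted p = 0.0499), BNIP3 and BNIP3L (adjusted p = 0.00907 and 0.0324). The brightest and the second BID probe set did not pass with that block (adjusted p = 0.142 and 0.0809). Whether the numbers pair the arrays is not known. LPS 1 deviated most like control 1 (r = 0.44), LPS 2 most like control 1 (r = 0.14) and LPS 3 most like control 2 (r = 0.32). These correlations cannot decide it. The other alternatives for all arrays left these 3 counts at 0. Leaving out 1 array, with or without the array set block (the fits with the block and an array left out were chosen after seeing the data), gave 10 to 744 over all probe sets, 0 to 6 for the family, 0 to 3 for the brightest probe sets and 0 to 3 for the other genes. The lowest, 10, came without LPS 2, and leaving out 1 array with no block gave 374 without control 1, 120 without LPS 3, 46 without control 2, 44 without LPS 1 and 14 without control 3. The 6 came without LPS 2 and with the block. The cause of these changes in the counts was not tested.

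Some signs changed. MCL1 by its cross-hybridising probe set gave -0.072 with the array set block, -0.023 after quantile normalisation, and -0.064 to 0.10 with 1 array left out. Its probe set at -0.15 gave 0.014 with the array set block and -0.34 to 0.014 with 1 array left out, and that at -0.02 gave -0.064 to 0.017. The brightest BCL2 probe set gave -0.0025 after quantile normalisation and -0.065 to 0.097 with 1 array left out, and others -0.12 to 0.049 and -0.0088 to 0.062. For BCL2L11 array weights gave 0.017 and 0.070 for probe sets at -0.04 and -0.02, and leaving out 1 array gave -0.15 to 0.11 and -0.12 to 0.15, and -0.16 to 0.023 for that at -0.09. For BCL2L1 leaving out 1 array gave -0.054 to 0.075 and -0.057 to 0.019. FAS gave -0.023 without the suffixes, by another probe set. Of 620 single-gene values, the fits chosen after seeing the data aside, 581 kept sign and call, 14 passed where they had not, and 25 changed sign. PMAIP1, BAX, APAF1 and CASP6 had no value without the suffixes. The 3 arrays per group limit the precision, and signals near the floor of the arrays limit what dim probe sets can show.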
